A study of Rattus norvegicus with 8 samples.

Results

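The plasminogen activator genes of rat granulosa cells (GCs) were followed as a set of 5: *Plat* and *Plau*, which encode the tissue-type and the urokinase-type activator, *Plaur*, the urokinase receptor, and the serpins *Serpine2* and *Serpinb2*, which inhibit the activators. They were matched to the table by gene symbol, and all 5 were found among the 13915 genes with a symbol. GCs from 24-day-old Sprague-Dawley rats were compared in 3 treatments, each lasting 24 hr. PKA-CQR cells carried a lentivirus for a mutant catalytic subunit of protein kinase A (PKA) that is active without cAMP (n = 3 arrays). FSH cells carried an EGFP lentivirus and received FSH at 100 ng/ml (n = 3), and EGFP cells carried the EGFP lentivirus alone as the transduction control (n = 2). All cultures were therefore transduced, were grown in M199 medium and contained testosterone, the substrate for estradiol. PKA-CQR was expressed from its virus, so these cells had an active kinase without FSH at its receptor.

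Plasminogen circulates as an inactive precursor that an activator cuts into plasmin, a protease that degrades fibrin and other matrix proteins. Urokinase is held at the cell surface by its receptor, serpins block activators by binding them covalently, and endocytic receptors take the resulting complexes into the cell. In the ovary the system is known for its part in the remodeling of the follicle wall around ovulation, and GCs are a known source of tissue-type activator in the rat.

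Each array gave a log2 signal for a gene, on which 1 unit is a doubling, and the median signal of the 8 arrays lay between 8.37 and 8.44. Arrays of a group correlated at 0.993 to 0.997 over all genes. Of the granulosa markers 8 of 9 were in the table (*Fshr* was not), and *Gja1*, *Foxl2* and *Inha* lay above the 97th percentile on every array, whereas the aromatase gene *Cyp19a1* reached as low as percentile 9.28. The summed linear signal of these 8 markers was 79006 to 79492 in PKA-CQR arrays, 72921 to 84273 in FSH arrays and 50496 to 53456 in EGFP arrays. Of the 8, 5 were called higher with FSH and 4 with PKA-CQR (13.4% and 6.48% of all genes). These were *Cyp19a1*, *Inha*, *Inhba* and *Hsd17b1* with both stimuli and *Fst* with FSH. *Gja1*, *Foxl2* and *Amh* were not called with either, so this sum follows genes that the stimuli changed. The smooth muscle sum (5 of 5 markers in the table) was 2801 to 3575 with PKA-CQR, 1234 to 1272 with FSH and 8006 to 14281 with EGFP. Of these markers *Tagln*, *Acta2* and *Cnn1* were called lower with both stimuli, and *Myh11* and *Des* with neither. The theca and stroma sum (8 of 8) was 1694 to 2131 with PKA-CQR, 1134 to 1246 with FSH and 2562 to 3686 with EGFP. Its brightest markers, *Col3a1* and *Dcn* (mean log2 9.24 and 9.09), were called lower with FSH, as was *Pdgfra*, and *Col3a1* also with PKA-CQR. The theca marker *Cyp17a1* was called higher with both stimuli (log2 0.94 with FSH and 0.79 with PKA-CQR). *Insl3*, *Ptch1*, *Gli1* and *Col1a1* were not called with either, so the sum does not stand for each marker. The macrophage and leukocyte sum (8 of 8) was 2764 to 3091 with PKA-CQR, 1928 to 2103 with FSH and 3142 to 3332 with EGFP. With FSH over EGFP, 3 of these markers were called higher and 1 lower (13.4% and 12.1% of all genes). *Cd68*, *Tyrobp* and *Cd53* rose by 0.69, 0.37 and 0.33, while *Cd14*, the brightest of them (mean log2 11.09), fell by 0.88. The endothelial sum (7 of 8) was 387 to 435 with PKA-CQR, 361 to 405 with FSH and 417 to 431 with EGFP. The oocyte sum (5 of 7) was 706 to 1147 with PKA-CQR, 524 to 753 with FSH and 726 to 856 with EGFP, and the epithelial sum (6 of 6) 928 to 1112 with PKA-CQR, 1016 to 1372 with FSH and 862 to 933 with EGFP. RMA signals hold no zeros, so no marker was at 0. The part of these other cells in the results below was not tested. In RNA of whole cultures, fewer or more cells of a type cannot be told apart from less or more marker RNA per cell.

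The promoters of *Plau* and *Plaur*, which rose with FSH, and of the abundant inhibitor *Serpine2* are shown from 250 bases before to 50 bases after the gene start, as RefSeq gives them on GRCr8 (4 of the 5 genes had an entry, and *Plat* was not among them). Capitals mark matches on either strand to TGACG, the core of a cAMP response element, to TGANTCA, an AP-1 type sequence, or to GGGCGG, a GC box.
Plau (chr15:3511938-3512237, minus strand): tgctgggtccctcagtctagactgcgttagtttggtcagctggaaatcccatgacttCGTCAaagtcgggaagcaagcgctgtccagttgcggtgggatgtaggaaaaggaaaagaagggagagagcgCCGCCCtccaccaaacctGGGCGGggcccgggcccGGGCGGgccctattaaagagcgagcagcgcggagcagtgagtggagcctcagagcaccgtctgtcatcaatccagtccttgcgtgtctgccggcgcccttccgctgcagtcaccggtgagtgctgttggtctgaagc
Plaur (chr1:89181113-89181412, plus strand): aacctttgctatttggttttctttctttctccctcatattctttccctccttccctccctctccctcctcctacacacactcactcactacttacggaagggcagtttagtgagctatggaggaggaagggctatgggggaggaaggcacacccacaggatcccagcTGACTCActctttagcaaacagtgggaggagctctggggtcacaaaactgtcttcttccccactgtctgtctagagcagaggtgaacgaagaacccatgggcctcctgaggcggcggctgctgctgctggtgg
Serpine2 (chr9:88637153-88637452, minus strand): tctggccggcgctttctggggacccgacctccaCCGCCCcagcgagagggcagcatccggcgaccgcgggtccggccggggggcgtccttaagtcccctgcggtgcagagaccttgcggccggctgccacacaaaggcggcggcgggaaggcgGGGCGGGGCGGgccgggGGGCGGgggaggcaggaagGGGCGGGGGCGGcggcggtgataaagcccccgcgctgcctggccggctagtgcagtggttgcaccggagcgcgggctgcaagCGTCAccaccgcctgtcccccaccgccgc
The *Plau* promoter held 1 TGACG and 3 GGGCGG, the *Plaur* promoter 1 TGANTCA, and the *Serpine2* promoter 1 TGACG and 6 GGGCGG. The *Serpinb2* promoter, not shown, held 1 TGANTCA at position -189. Of 33469 rat promoters of this length, 21.2% held TGACG, 7.33% TGANTCA and 33.1% GGGCGG. The full element TGACGTCA, which contains TGACG, was in 1.83% and the TATA sequence TATAAA in 14.2%, and neither was in these 4 promoters. The matches are a description of these windows only.

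*Plat* rose the most of the 5 genes with both stimuli. Its log2 signal was 9.98, 10.56 and 9.97 in PKA-CQR arrays, 9.75, 9.66 and 9.23 in FSH arrays, and 7.63 and 6.93 in EGFP arrays. Every stimulated array lay above both controls, and the PKA-CQR and FSH arrays did not overlap each other. With PKA-CQR the signal was 7.43-fold that of EGFP cells (log2 2.89 ± 0.26 SE, 95% interval 2.31 to 3.48, limma adjusted p = 0.00026). With FSH it was 4.82-fold (log2 2.27 ± 0.26 SE, interval 1.68 to 2.85, limma adjusted p = 0.000281). These changes ranked 25 and 74 among the rises of all genes in their comparisons. *Plat* lay between percentiles 72.3 and 80.7 of named genes in PKA-CQR arrays, 61.7 and 69.3 in FSH arrays and 34.3 and 41.2 in EGFP arrays.

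*Plau* rose with both stimuli by a smaller factor. Its log2 signal was 9.76, 9.91 and 9.45 with PKA-CQR, 9.94, 9.48 and 9.21 with FSH, and 8.30 and 8.52 with EGFP. The stimulated arrays were all above the controls and were mixed among themselves. The fold change was 2.46 with PKA-CQR (log2 1.30 ± 0.21 SE, limma adjusted p = 0.00449) and 2.2 with FSH (log2 1.14 ± 0.21 SE, limma adjusted p = 0.00423).

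*Plaur*, whose product concentrates urokinase at the cell surface, changed least among the genes that rose. It read 7.19, 7.51 and 7.31 in PKA-CQR arrays, 7.32, 7.67 and 7.32 in FSH arrays, and 6.91 and 6.97 in EGFP arrays. Both stimulated groups lay wholly above EGFP. The rise was 1.41-fold with FSH (log2 0.50 ± 0.13 SE, limma adjusted p = 0.0238), and it missed the threshold when EGFP replicate 1, EGFP replicate 2 or FSH replicate 2 was left out (adjusted p = 0.126, 0.0763 and 0.0565 by limma). With PKA-CQR the difference of 0.40 ± 0.13 SE missed the threshold (limma adjusted p = 0.0957), but passed it with the replicate number as a block (log2 0.43, limma adjusted p = 0.0241).

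**Figure D1:**
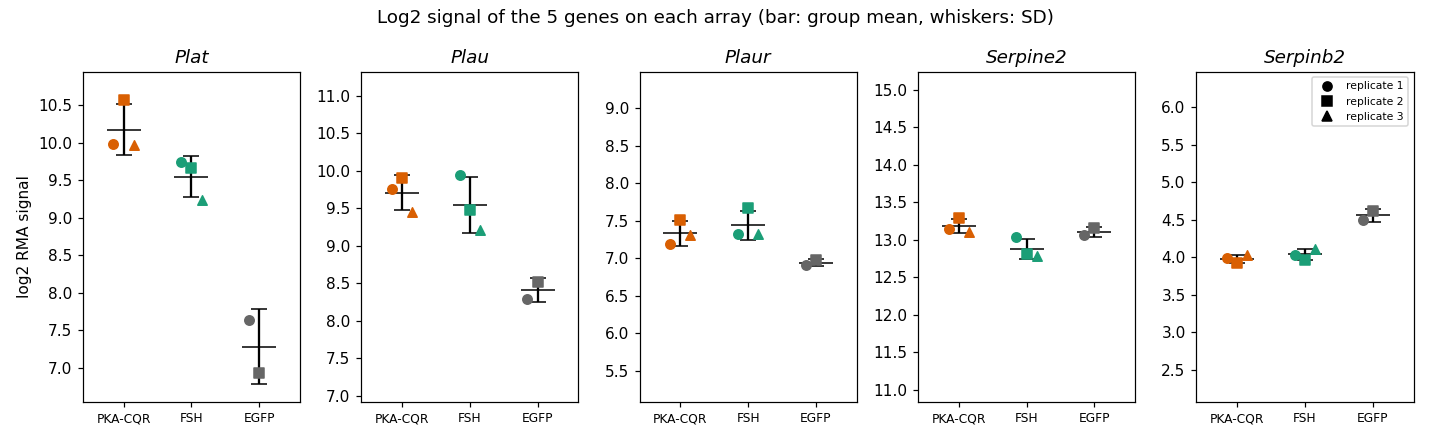
The log2 RMA signal of the 5 genes is plotted by array, with PKA-CQR (n = 3), FSH (n = 3) and EGFP (n = 2) from left to right, points for arrays and bars for the group mean and SD. *Plat* stands at 9.97 to 10.56 in PKA-CQR arrays and 9.23 to 9.75 in FSH arrays, above 6.93 to 7.63 in EGFP arrays, whereas *Serpine2* stays between 12.79 and 13.29 on all arrays.

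Of the inhibitors, *Serpine2*, also called protease nexin-1, an inhibitor of thrombin, urokinase and plasmin, had a log2 signal of 13.15, 13.29 and 13.11 with PKA-CQR, 13.04, 12.81 and 12.79 with FSH, and 13.06 and 13.15 with EGFP. It was above percentile 97 of named genes on every array, and the FSH arrays were the lowest. The difference was 0.08 (interval -0.15 to 0.30, limma adjusted p = 0.734) for PKA-CQR over EGFP and -0.23 (interval -0.46 to -0.0012, limma adjusted p = 0.136) for FSH over EGFP, and neither passed the test. Without FSH replicate 1 the fall with FSH passed it (log2 -0.31, limma adjusted p = 0.0443).

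*Serpinb2*, which encodes plasminogen activator inhibitor type 2, fell with both stimuli, at signals close to the lowest on the arrays. It read 3.98, 3.92 and 4.03 in PKA-CQR arrays, 4.03, 3.96 and 4.11 in FSH arrays, and 4.50 and 4.62 in EGFP arrays. The stimulated arrays overlapped one another and all lay below the controls. The signal fell by 0.58 on the log2 scale with PKA-CQR (± 0.079 SE, 1.5-fold lower, limma adjusted p = 0.00206) and fell by 0.52 with FSH (± 0.079 SE, 1.44-fold lower, limma adjusted p = 0.00151). It lay between percentiles 1.46 and 1.90 of named genes in PKA-CQR arrays, 1.5 and 1.93 in FSH arrays and 5.76 and 6.53 in EGFP arrays. No detection calls were used here, so whether this signal stands above background is not known.

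With PKA-CQR over EGFP 2 of the 5 genes rose, 1 fell and 2 missed the threshold, where 12.5% of all genes were called, 6.48% as higher and 6.02% as lower. With FSH over EGFP 3 rose, 1 fell and 1 missed the threshold, where 25.5% of all genes were called, 13.4% as higher and 12.1% as lower. PKA-CQR arrays did not overlap EGFP arrays in 4 of the 5 genes, 3 higher and 1 lower, beside 40.6% of all genes, 22.9% higher and 17.6% lower. FSH arrays did not overlap EGFP arrays in any of the 5 genes, 3 higher and 2 lower, beside 49.2% of all genes, 29.9% higher and 19.3% lower. The median difference of the 5 genes was 0.40 with PKA-CQR and 0.50 with FSH, beside 0.03 and 0.06 over all genes. Both comparisons share the EGFP arrays.

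**Figure D2:**
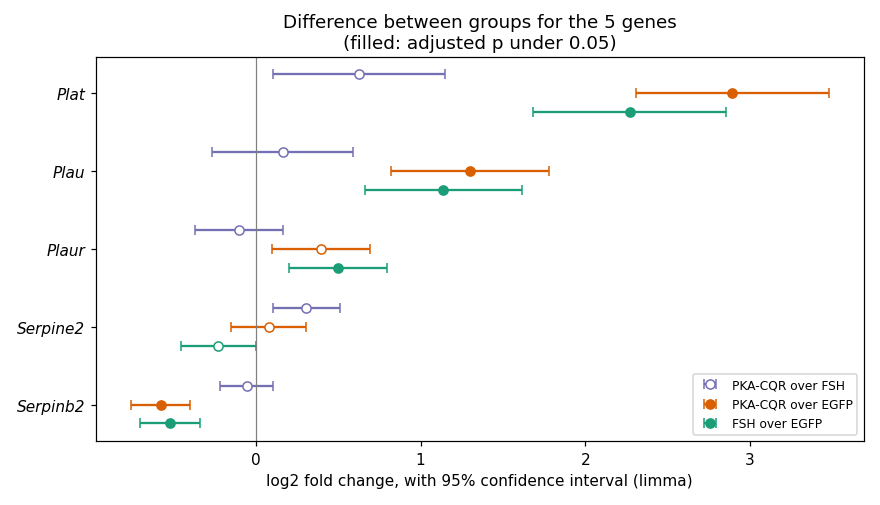
The log2 difference and its 95% interval are drawn for each of the 5 genes in the comparisons PKA-CQR over FSH, PKA-CQR over EGFP and FSH over EGFP. *Plat* shows the widest separation from 0 against EGFP (2.89 with PKA-CQR and 2.27 with FSH), and *Serpinb2* lies below 0 against EGFP.

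The stimuli were then set against each other. None of the 5 genes was called in PKA-CQR over FSH by limma, where 6.91% of all genes were, 3.95% as higher and 2.96% as lower. *Plat* and *Serpine2* had the lowest unadjusted p values of the 5 (0.0248 and 0.00828 by limma), and the other 3 were above 0.05. *Plat* was 1.54-fold higher with PKA-CQR than with FSH (log2 0.62 ± 0.23 SE, interval 0.10 to 1.15, limma adjusted p = 0.184), and the 3 differences between same-numbered cultures were 0.24, 0.90 and 0.73. *Serpine2* was 1.24-fold higher with PKA-CQR than with FSH (log2 0.31 ± 0.089 SE, interval 0.10 to 0.51, limma adjusted p = 0.0913), with same-numbered differences of 0.11, 0.48 and 0.32. For both genes the groups did not overlap, both higher with PKA-CQR, which was so for 10.7% of all genes, and 22.8% in either direction. *Serpine2* passed without FSH replicate 1 (limma adjusted p = 0.0411).

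For the others the intervals spanned 0: -0.27 to 0.59 for *Plau*, -0.37 to 0.17 for *Plaur* and -0.22 to 0.10 for *Serpinb2*. Same-numbered cultures differed in *Plau* by -0.19, 0.43 and 0.24, so the sign was not shared. A ratio of both effects, with FSH on top and a fall counted as fold lower, was computed in the form of the study's ratio. It was 0.649 for *Plat*, 0.894 for *Plau*, 1.07 for *Plaur* and 0.961 for *Serpinb2*. It has no value for *Serpine2*, whose measured differences from EGFP had opposite signs. The study kept its ratio for transcripts with at least a doubling, or a fall by that factor, with either stimulus. *Plaur* (1.41-fold with FSH, 1.32-fold with PKA-CQR) and *Serpinb2* (1.44-fold and 1.5-fold lower) did not reach that here. The ratios here rest on RMA signals, whereas the study's methods name MAS5.0 values. They also rest on group means of log2 signals, whereas the study divided each value by the control of its own culture group. For its last group the study took the mean of the other groups' controls. The difference between the 3′ and 5′ beta-actin signals, a measure of RNA integrity, was 1.45, 1.34 and 1.66 in PKA-CQR arrays, 1.30, 1.45 and 1.88 in FSH arrays and 1.02 and 1.53 in EGFP arrays. With it as a covariate *Plat* passed the test in PKA-CQR over FSH (log2 0.56, limma adjusted p = 0.0177).

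**Figure D3:**
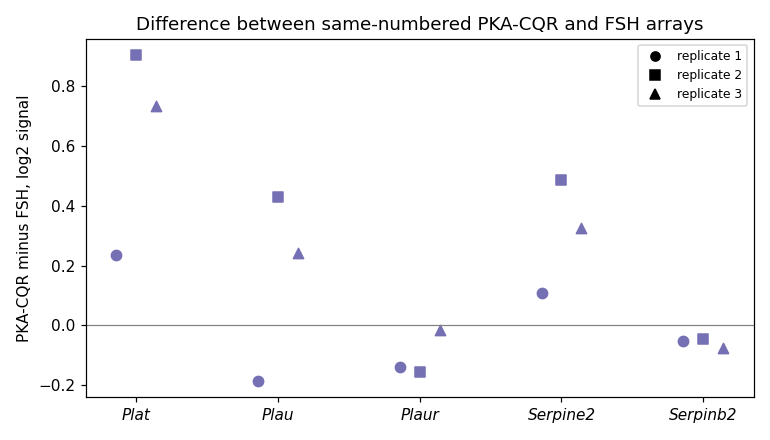
The log2 signal of PKA-CQR minus that of FSH is plotted for each gene in the 3 pairs of same-numbered cultures. All pairs lie above 0 for *Plat* (0.24 to 0.90) and *Serpine2* (0.11 to 0.48), while *Plau* spans -0.19 to 0.43.

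The genes with a pattern across the 8 arrays most like each of the 5 were found by Pearson's r among genes whose log2 signals span at least 1. These r values are a description, because the points share their group differences. For *Plat* they were *Gdf11* (0.982), *Kif20a* (0.979) and *Giot1* (0.974). For *Plau* they were *Slc23a2* (0.971), *Vcan* (0.969) and *Hao2* (0.968). *Plaur* was most like *Ptplad1* (0.952), *Filip1* (0.948) and *Clmp* (0.928). *Serpine2* was most like *Trim2* (0.957), *Zcchc12* (0.934) and *Cbln1* (0.912), and *Serpinb2* most like *Tnnc1* (0.981), *Vtcn1* (0.951) and *Klf7* (0.948).

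Related genes were counted in 4 lists, whose median differences lay between -0.10 and 0.09 with PKA-CQR (0.03 over all genes), between -0.05 and 0.09 with FSH (0.06 over all genes), and between 0.01 and 0.05 for PKA-CQR over FSH (-0.02 over all genes). Their counts stand beside the shares of all genes called that are given above. Among plasminogen and its cell-surface receptors (5 of 6 genes in the table), 0 rose and 1 fell with PKA-CQR, and 0 rose and 2 fell with FSH. *Plgrkt*, a membrane receptor that presents plasminogen to its activators, fell by 0.36 with PKA-CQR (limma adjusted p = 0.0326, above the threshold, at up to 0.174, when any array but FSH replicates 1 and 3 was left out) and fell by 0.47 with FSH (limma adjusted p = 0.00539). *S100a10*, the partner of annexin A2 in binding plasminogen, fell by 0.50 with FSH (limma adjusted p = 0.00484). None of the 5 was called between the stimuli by limma.

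Of the receptors that clear complexes of protease and serpin (8 of 8), 0 rose and 1 fell with PKA-CQR, 2 rose and 3 fell with FSH, and 2 were higher and 0 lower in PKA-CQR than in FSH. *Vldlr*, an endocytic receptor, fell by 0.80 with PKA-CQR (1.75-fold lower, limma adjusted p = 0.0175, not called without EGFP replicate 1, PKA-CQR replicate 1 or PKA-CQR replicate 2, at 0.146, 0.0622 and 0.0612) and fell by 1.17 with FSH (2.25-fold lower, limma adjusted p = 0.00134). *Sorl1*, a sorting receptor, stood 0.70 above its FSH signal in PKA-CQR cells (limma adjusted p = 0.00235), and it fell by 0.59 with FSH (limma adjusted p = 0.00242). *Lrpap1*, the chaperone of these receptors, stood 0.45 higher in PKA-CQR than in FSH cells (limma adjusted p = 0.00753). It fell by 0.45 with FSH (limma adjusted p = 0.00384) and was not called in PKA-CQR over EGFP (log2 0.0021). *Lrp1*, an endocytic receptor for such complexes, rose with FSH by 0.33 (limma adjusted p = 0.0257), but was not called without EGFP replicate 1, EGFP replicate 2, FSH replicate 2 or FSH replicate 3 (up to 0.118).

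Of the urokinase receptor partners (8 of 9 in the table), 0 rose and 1 fell with PKA-CQR, 1 rose and 3 fell with FSH, and 1 was higher and 0 lower in PKA-CQR than in FSH. *Itgb3*, the beta-3 integrin that pairs with the alpha-v chain as a vitronectin receptor, read 6.49, 6.46 and 6.50 with PKA-CQR, 5.97, 6.09 and 6.13 with FSH, and 7.44 and 7.20 with EGFP. It fell by 0.83 with PKA-CQR and fell by 1.25 with FSH (limma adjusted p = 0.000734 and 2.6e-05). Its higher signal with PKA-CQR than with FSH (log2 0.42, limma adjusted p = 0.0181) was not called, at up to 0.077, without FSH replicate 1 or 2 or any of the 3 PKA-CQR arrays. *Itgav*, the alpha-v chain, fell by 0.73 with FSH (limma adjusted p = 0.0311). It was not called, at up to 0.124, without EGFP replicate 1, any FSH array or PKA-CQR replicate 1, and without EGFP replicate 1 the difference was -0.31. *Itgb2*, a leukocyte integrin chain, rose by 0.34 with FSH (limma adjusted p = 0.0287) and was not called without EGFP replicate 1, EGFP replicate 2 or FSH replicate 2, at up to 0.143.

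The table held 31 other serpins. Of these 1 rose and 3 fell with PKA-CQR, 0 rose and 7 fell with FSH, and 4 were higher and 0 lower in PKA-CQR than in FSH. *Serping1*, the inhibitor of complement C1 proteases, read 7.06, 6.76 and 6.75 with PKA-CQR, 5.55, 5.61 and 5.31 with FSH, and 8.25 and 8.02 with EGFP, so that the 3 groups did not overlap. It was 2.42-fold lower with PKA-CQR and 6.24-fold lower with FSH than with EGFP (limma adjusted p = 0.000542 and 3.9e-06). *Serpinb6b* fell by 0.96 with PKA-CQR and fell by 1.61 with FSH (limma adjusted p = 0.00063 and 1.35e-05), and it was higher with PKA-CQR than with FSH (log2 0.64, limma adjusted p = 0.00445). The probes of close relatives such as *Serpinb6* may bind both transcripts. *Serpinf1*, which encodes pigment epithelium-derived factor, stood 1.12 higher in PKA-CQR than in FSH cells (limma adjusted p = 0.00759). It fell by 1.29 with FSH (limma adjusted p = 0.00175) and was not called in PKA-CQR over EGFP (log2 -0.17). *Serpina5*, the protein C inhibitor, which also inhibits urokinase, rose by 0.71 with PKA-CQR (limma adjusted p = 0.0244), and was not called without EGFP replicate 1, PKA-CQR replicate 1 or PKA-CQR replicate 3, at 0.189, 0.0826 and 0.0659.

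**Figure D4:**
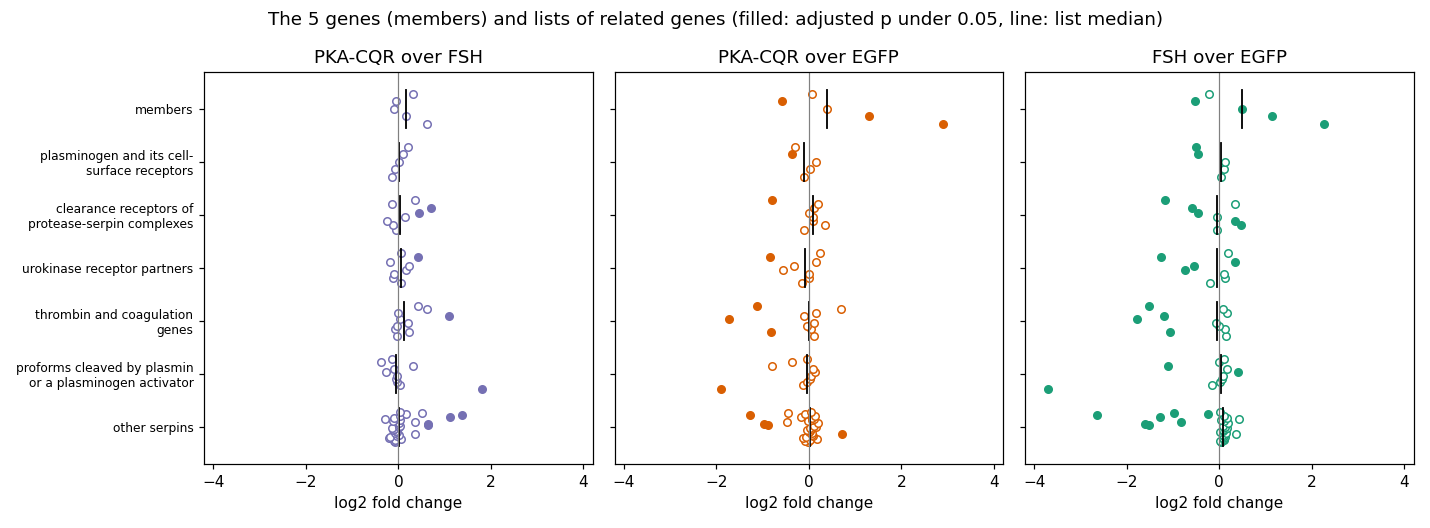
The log2 differences of the 5 genes and of each list of related genes are plotted for PKA-CQR over FSH, PKA-CQR over EGFP and FSH over EGFP, with filled points for called genes and a line at each list's median. *Plat* lies farthest to the right against EGFP (2.89 with PKA-CQR), and among the other serpins *Serping1* lies farthest to the left (-2.64 with FSH).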

How the data were processed

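The values are log2 signals that the authors deposited after RMA, a method that corrects background, quantile-normalizes the arrays and summarizes the probes of a set. The version of RMA and the chip definition are not given in the sources used here, and the MAS5.0 values named in the methods were not used. The table holds 31099 probe sets, of which 57 are controls and 13915 carry a symbol, 1 probe set per symbol. A second deposited table holds the same log2 signals, and 0 values differ.

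Genes were tested with limma 3.58.1 in R 4.3.3 (lmFit and eBayes) over all 8 arrays in 3 groups, and called at a Benjamini-Hochberg adjusted p under 0.05 across the 13915 genes. The fit was also run on simulated data with independent noise on each array, which leaves out any link between same-numbered arrays. Its outcome is not reported here. P-values measure the spread between these arrays, whose number limits the precision. Differences are log2. Percentiles of a gene are over all named genes of an array.

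Named in the text are the 5 genes, in each list and comparison up to 2 called genes with the largest rise and 2 with the largest fall, and 3 most similar genes per member. *Serpinb6* lies outside this rule and was chosen after its values were seen. A gene that the rule names is not reported here. Genes and lists were chosen with earlier results of these data known. The main fit held no block for the replicate number, so its p-values do not use pairs. Replicate numbers were taken as pairs only in the same-numbered differences and the block alternatives, since the methods tell of 3 culture groups collected apart. The correlation of deviations between PKA-CQR and FSH arrays of a number was 0.23 (1), 0.44 (2) and 0.62 (3). EGFP replicate 1 gave 0.13 with PKA-CQR and 0.42 with FSH, and the values were -0.32 and -0.27 in EGFP replicate 2, whose array code stands next to that of FSH replicate 3. The study's figure legend names the controls as those of groups 1 and 2, which is the pairing by number. The block by array code order departs from that legend, because it places EGFP replicate 2 with the arrays numbered 3. Alternatives were other scalings, filters, variance models, blocks, array weights, the beta-actin covariate, the methods' t-test and each array left out. Promoters are RefSeq sequences on GRCr8.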

Additional observations from a re-analysis of the deposited data

Results flagged for a closer look

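In the lists of related genes, 9 differed between the stimuli by the direct limma test of PKA-CQR over FSH, which called 3.95% of all genes as higher and 2.96% as lower in PKA-CQR cells. None of the 5 plasminogen activator genes and inhibitors did. The log2 difference of PKA-CQR over FSH was 1.82 for *Bdnf* (limma adjusted p = 0.00694), 1.37 for *Serping1* (0.000525), 1.12 for *Serpinf1* (0.00759) and 1.09 for *Procr* (0.00957). It was 0.70 for *Sorl1* (limma adjusted p = 0.00235), 0.64 for *Serpinb6b* (0.00445), 0.64 for *Serpinb6* (0.0135), 0.45 for *Lrpap1* (0.00753) and 0.42 for *Itgb3* (0.0181). All 9 were higher with PKA-CQR. *Serpinb6*, which lies outside the rule for named genes, was not called without PKA-CQR replicate 1 (0.0696) or PKA-CQR replicate 2 (0.0543), and *Itgb3* was not called without FSH replicate 1 or 2 or any of the 3 PKA-CQR arrays, at up to 0.077. Against EGFP, all 9 genes were called lower with FSH (12.1% of all genes), and none was called higher with PKA-CQR (6.48% of all genes). The 9 were chosen by a test that uses the same FSH arrays, so their calls with FSH are not independent of that choice. How many other genes carried both calls was not counted. The differences from EGFP with FSH and with PKA-CQR were -1.29 and -0.17 for *Serpinf1*, and -1.19 and -0.10 for *Procr*. They were -0.45 and 0.0021 for *Lrpap1*, and -1.52 and -0.88 for *Serpinb6*. Groups of 2 and 3 arrays were too small to look for single arrays that stand apart.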

How the results depend on the processing

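Of 120 values of the 5 genes with 1 array left out, 113 kept direction and side of the threshold, as did 186 of 192 under the other alternatives apart from the t-test. Against EGFP, FSH called 3548 genes and PKA-CQR 1739, and the stimuli differed from each other in 962. With every probe set tested, the comparisons with EGFP called 6027 (FSH) and 2925 (PKA-CQR). In the order above, the methods' t-test gave 798, 53 and 118 after Benjamini-Hochberg, and 390, 212 and 231 at an unadjusted p under 0.001. In PKA-CQR over FSH the block by array code order gave 1585, array weights 2041 and the beta-actin covariate 1557. With 1 array left out the counts were 2272 to 3288 (lowest without EGFP replicate 1), 851 to 1907 (lowest without EGFP replicate 1, and 1144 without PKA-CQR replicate 2) and 459 to 903 (lowest without PKA-CQR replicate 1, and 535, 600 and 542 without FSH replicate 2, PKA-CQR replicate 2 and PKA-CQR replicate 3). The replicate block gave 3786, 1979 and 1270, and changed the call of *Plaur* for PKA-CQR over EGFP (log2 0.43) and of *Mmp9* for FSH over EGFP (log2 0.36, adjusted p = 0.0653), and of no other of the 5 genes or the named list genes. The random block (0.41) and the block by array code order (0.29) also called *Plaur* there.

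The methods' t-test called none of the 5 genes at either threshold, with the log2 values unchanged: with FSH against EGFP 2.27 (*Plat*), 1.14 (*Plau*), 0.50 (*Plaur*) and -0.52 (*Serpinb2*), and with PKA-CQR against EGFP 2.89 (*Plat*), 1.30 (*Plau*) and -0.58 (*Serpinb2*). Its adjusted p values ran from 0.0615 to 0.174 with FSH in these genes, and it takes each gene's spread from its own arrays alone. In PKA-CQR over FSH, *Plat* was called with the block by array code order (0.62) and with the beta-actin covariate (0.56), and *Serpine2* with array weights (0.35). With 1 array left out, *Plaur* spanned 0.38 to 0.56 and *Serpine2* -0.31 to -0.18 with FSH against EGFP. Between the stimuli, PKA-CQR over FSH, *Plau* spanned -0.0049 to 0.36, reversed without FSH replicate 3, *Plaur* -0.19 to 0.012, reversed without FSH replicate 2, and *Serpine2* 0.25 to 0.39. The cause was not tested. *Serpinb2* did not pass the filter on dim probe sets. No mean over probe sets was taken, since the probe annotation used here pairs no other probe set with the 5 symbols. A further 17128 probe sets carry no symbol, so whether others exist for these genes is not known. Of the named list genes, 228 of 272 values with 1 array left out and 6 of 68 with the t-test kept their call. EGFP rests on 2 arrays, and an exact permutation test of a single gene cannot go below p = 0.1.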

Other observations

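Of the genes of thrombin and coagulation (10 of 10 in the table), 0 rose, 3 fell and 7 were not called with PKA-CQR, where 6.02% of all genes fell. With FSH 0 rose, 4 fell and 6 were not called, where 12.1% of all genes fell. The list's median difference was -0.0031 with PKA-CQR and -0.04 with FSH, beside 0.03 and 0.06 over all genes. *F3*, tissue factor, which starts coagulation, read 9.09, 9.47 and 9.41 with PKA-CQR, 8.96, 9.47 and 9.42 with FSH, and 11.52 and 10.60 with EGFP. It was 3.33-fold lower with PKA-CQR and 3.43-fold lower with FSH (limma adjusted p = 0.0034 and 0.00134). *Thbd*, thrombomodulin, was 2.16-fold lower with PKA-CQR (limma adjusted p = 0.0079, and 0.0723 without EGFP replicate 1) and 2.88-fold lower with FSH (0.000711). *Procr*, the endothelial protein C receptor, was 2.13-fold higher with PKA-CQR than with FSH. It read 10.21, 10.07 and 10.49 in PKA-CQR arrays, 9.35, 8.73 and 9.42 in FSH arrays, and 10.27 and 10.44 in EGFP arrays. Against EGFP it fell by 1.19 with FSH (limma adjusted p = 0.00307) and was not called with PKA-CQR (log2 -0.10, limma adjusted p = 0.842).

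Of the proforms that plasmin or an activator cuts (10 of 10), 0 rose and 1 fell with PKA-CQR, and 1 rose and 2 fell with FSH. Of all genes, 6.48% rose and 6.02% fell with PKA-CQR, and 13.4% rose and 12.1% fell with FSH. The list medians were -0.03 with PKA-CQR and 0.04 with FSH, beside 0.03 and 0.06 over all genes. *Bdnf*, whose precursor plasmin can process, was 3.72-fold lower with PKA-CQR (limma adjusted p = 0.00574, and 0.0561 without EGFP replicate 1) and 13.1-fold lower with FSH (6.4e-05). It read 8.99, 8.50 and 9.26 with PKA-CQR, 6.63, 7.16 and 7.51 with FSH, and 11.21 and 10.41 with EGFP. *Pdgfc*, activated by tissue-type activator, fell by 1.11 with FSH (limma adjusted p = 0.0315), and fell by 0.57 without EGFP replicate 1. It was not called then, nor without FSH replicate 2, FSH replicate 3 or PKA-CQR replicate 2, at up to 0.221. *Mmp9*, a gelatinase at a low signal, rose by 0.40 with FSH (limma adjusted p = 0.0383), and was not called, at up to 0.268, when any array but EGFP replicate 2 and FSH replicate 1 was left out. With the replicate number as a block it was not called either (log2 0.36, limma adjusted p = 0.0653).

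The *Plaur* signals of FSH replicates 1 and 3 were equal to the last digit. Such equal values within a group occurred in 3.10% of named genes for FSH, 4.33% for PKA-CQR and 0.992% for EGFP.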
